A study of Mus musculus with 36 samples.

Results

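The genes described here are 33 immediate early and heat shock genes, chosen by symbol, of the 18193 mouse genes that the arrays measured with a probe set of a single gene symbol. They were 26 early response genes and 7 heat shock genes. Each was read from its probe set with the highest mean over the 36 arrays. Of the 33 genes, 32 were bright enough to be tested. The exception was Fosl1, an AP-1 subunit whose log2 signal lay between 4.62 and 5.46 in all arrays, below the median of all probe sets and arrays (5.66).

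The study measured RNA of 6 cell populations of the thymus on Affymetrix mouse whole-genome arrays. Thymi of male, wild-type C57BL/6J mice were digested with enzymes and the cells were purified by flow cytometry. They were epithelial cells of the thymic cortex (cTEC), epithelial cells of the medulla low (mTEClo) and high (mTEChi) for the sorting markers, dendritic cells without (Sirpa- DC) and with (Sirpa+ DC) the surface protein Sirpa, and fibroblasts. Each was taken from mice aged 1, 3 or 6 months, with 2 arrays per population and age, which makes 18 groups. All groups share the strain, the sex and the digestion and sort, and no group carries a mutation or a treatment. Labels give 1 mouse for each sample, whereas the series' design speaks of 2 mice at each age. The p-values therefore measure the spread between 2 arrays per group, which may come from few animals. Because every array followed digestion and sorting, RNA present in the living thymus and RNA made during the preparation cannot be told apart in any of the values below. In sorted bulk samples, fewer cells with a transcript and less transcript per cell cannot be told apart either.

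Immediate early genes are switched on within minutes of a stimulus by transcription factors that the cell already holds, and need no new protein synthesis. They encode the AP-1 subunits of the Fos and Jun families, the zinc finger factors of the EGR and KLF families, the NR4A orphan nuclear receptors, and feedback regulators such as the dual specificity phosphatases, which remove phosphate from MAP kinases, and Zfp36, which speeds the decay of mRNAs. Heat shock genes encode chaperones, are induced by heat shock factor 1 when proteins unfold, and, like the early genes, are known to respond to warm enzymatic digestion of tissue.

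Promoter sequence was looked up because members of such a set share short control elements, and because it shows how alike the Hspa1a and Hspa1b genes are. RefSeq (GRCm38.p6) gave a promoter for 27 of the 33 genes, and the 250 bases before the start of each gene were searched on both strands. The EGR motif GCGGGGGCG was in 7 of these 27 promoters (25.9%, against 2.57% of all 32851 promoters in the table). They were those of Fosb, Fosl2, Nr4a1, Dusp2, Zfp36, Klf2 and Klf4. The CArG box, the element of serum response factor, was in 3 (11.1%, against 1.47%), those of Egr2, Dusp5 and Zfp36. The cyclic AMP response element TGACGTCA was in those of Dusp1 and Btg2 (7.41%, against 1.55%), and the box TATAAA was in 3 (11.1%, against 12.4%). The heat shock unit pair GAANNTTC or TTCNNGAA was in 7 (25.9%, against 12.8%), of which 4 were heat shock genes (Hspa1a, Hspa1b, Hsph1 and Hspb1) and 3 early genes (Fosl2, Jun and Egr2). Matches to the AP-1 site were in 0 of these 27 promoters (against 4.46% of all promoters). The heat shock unit pair with another unit after it was also in 0 (against 0.466%). The 27 were counted by gene, with a match in any listed promoter of the gene, and the 32851 by promoter. The latter were not limited to the genes measured here, so the 2 shares are not strictly alike. The motifs were not searched for overlap with each other, and a match describes letters only.

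In the 4 early and stress promoters below, the capitals mark TATAAA in Fos, GCGGGGGCG and then the CArG box in Zfp36, TGACGTCA in Dusp1, and the heat shock unit pairs in Hspb1. Fos lies at chr12:85473640-85473889 on the plus strand, Zfp36 at chr7:28379229-28379478 on the minus strand, Dusp1 at chr17:26508473-26508722 on the minus strand and Hspb1 at chr5:135887669-135887918 on the plus strand. All are printed 5′ to 3′ on the strand of the gene and end at the base before its start.
Fos: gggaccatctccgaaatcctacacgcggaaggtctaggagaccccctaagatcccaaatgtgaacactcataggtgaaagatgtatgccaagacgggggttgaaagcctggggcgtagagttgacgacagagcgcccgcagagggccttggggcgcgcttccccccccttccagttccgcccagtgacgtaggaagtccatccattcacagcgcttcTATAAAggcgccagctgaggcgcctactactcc
Zfp36: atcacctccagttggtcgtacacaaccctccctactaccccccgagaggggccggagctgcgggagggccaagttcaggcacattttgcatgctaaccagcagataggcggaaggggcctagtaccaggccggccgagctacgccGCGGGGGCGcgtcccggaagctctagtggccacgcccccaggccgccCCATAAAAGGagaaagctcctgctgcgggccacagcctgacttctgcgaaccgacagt
Dusp1: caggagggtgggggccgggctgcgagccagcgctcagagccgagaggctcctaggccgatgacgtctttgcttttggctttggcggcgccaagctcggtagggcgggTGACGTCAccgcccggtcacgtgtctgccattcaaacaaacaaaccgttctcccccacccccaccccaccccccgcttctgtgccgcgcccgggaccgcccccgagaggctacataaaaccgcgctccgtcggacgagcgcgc
Hspb1: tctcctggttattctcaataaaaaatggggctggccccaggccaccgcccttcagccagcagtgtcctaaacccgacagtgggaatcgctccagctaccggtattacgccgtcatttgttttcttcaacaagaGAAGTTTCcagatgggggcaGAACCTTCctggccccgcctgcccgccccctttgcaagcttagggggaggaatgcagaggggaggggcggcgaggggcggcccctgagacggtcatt

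Hspa1a and Hspa1b, neighbouring genes for the inducible chaperone Hsp70, are shown because their promoters were identical at 247 of 250 bases (98.8%). They lie at chr17:34972157-34972406 and chr17:34959239-34959488, both on the minus strand, and the capitals mark the heat shock unit pair. The transcripts of such near-identical copies can bind each other's probes, so which of these genes gave a signal is uncertain.
Hspa1a: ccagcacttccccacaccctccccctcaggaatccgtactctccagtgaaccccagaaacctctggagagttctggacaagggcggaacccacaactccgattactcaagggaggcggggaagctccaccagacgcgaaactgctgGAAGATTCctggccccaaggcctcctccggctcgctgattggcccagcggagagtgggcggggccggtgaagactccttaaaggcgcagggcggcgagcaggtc
Hspa1b: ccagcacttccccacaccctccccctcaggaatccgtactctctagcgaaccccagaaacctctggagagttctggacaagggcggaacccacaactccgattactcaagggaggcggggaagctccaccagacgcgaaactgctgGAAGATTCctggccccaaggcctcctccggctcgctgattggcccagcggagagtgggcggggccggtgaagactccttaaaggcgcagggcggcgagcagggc

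Marker genes bore out most labels, and the arrays of some populations also held RNA of marker genes of other cell types. The mean of 13 thymocyte genes was 8.49 to 10.94 in the 6 fibroblast arrays, with all 13 above the pooled median in each of them, 6.33 to 8.32 in cTEC, and 5.21 to 7.81 in the other populations. In the Sirpa+ DC arrays all 8 macrophage genes were above the pooled median, and 7 of them were in all arrays of Sirpa- DC and of mTEChi. A signal above the pooled median does not show which cells the RNA came from. The log2 signal difference between the 3′ and 5′ ends of Gapdh and Actb, a measure of RNA integrity and amplification, was larger at 1 than at 6 months in all 6 populations. The group means were 2.67 and 1.91 in mTEClo, 2.76 and 1.79 in fibroblasts, 2.53 and 2.00 in cTEC, 2.01 and 1.85 in mTEChi, 1.80 and 1.42 in Sirpa- DC and 1.78 and 1.47 in Sirpa+ DC. It therefore moved with every comparison of 1 with 6 months below. With it as a covariate, 3 cases of a member in a population were called from 1 to 3 months, in place of 10. Its effect on single genes within a population is not given here.

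Most members were above the pooled median in every array, Fosl1 in none, and Dusp2 was above it in 31 of 36 arrays, Nr4a3 and Egr3 in 34 and Nr4a2 in 35. Fos, the AP-1 subunit that defines the early response, had a mean log2 signal of 13.07 over the 36 arrays and a lowest value of 12.13. Egr1, a zinc finger factor induced with Fos, had a mean of 12.34 and a lowest value of 11.04. Dusp1, which inactivates MAP kinases, had 12.12 and 10.50, and Jun had 11.48 and 10.22. Among the chaperones, Hspa8, the constitutive Hsp70, had a mean of 13.02, Hspa1b had 12.92 and Hspa1a had 12.52. The ranges over all 36 arrays were 1.61 log2 units for Fos and 1.39 for Hspa8, and were widest for Egr3 (6.49), Nr4a3 (5.74), Nr4a2 (5.52) and Hspb1 (5.51). These levels are not an order of the genes by abundance, because probe sets differ in affinity.

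**Figure D1:**
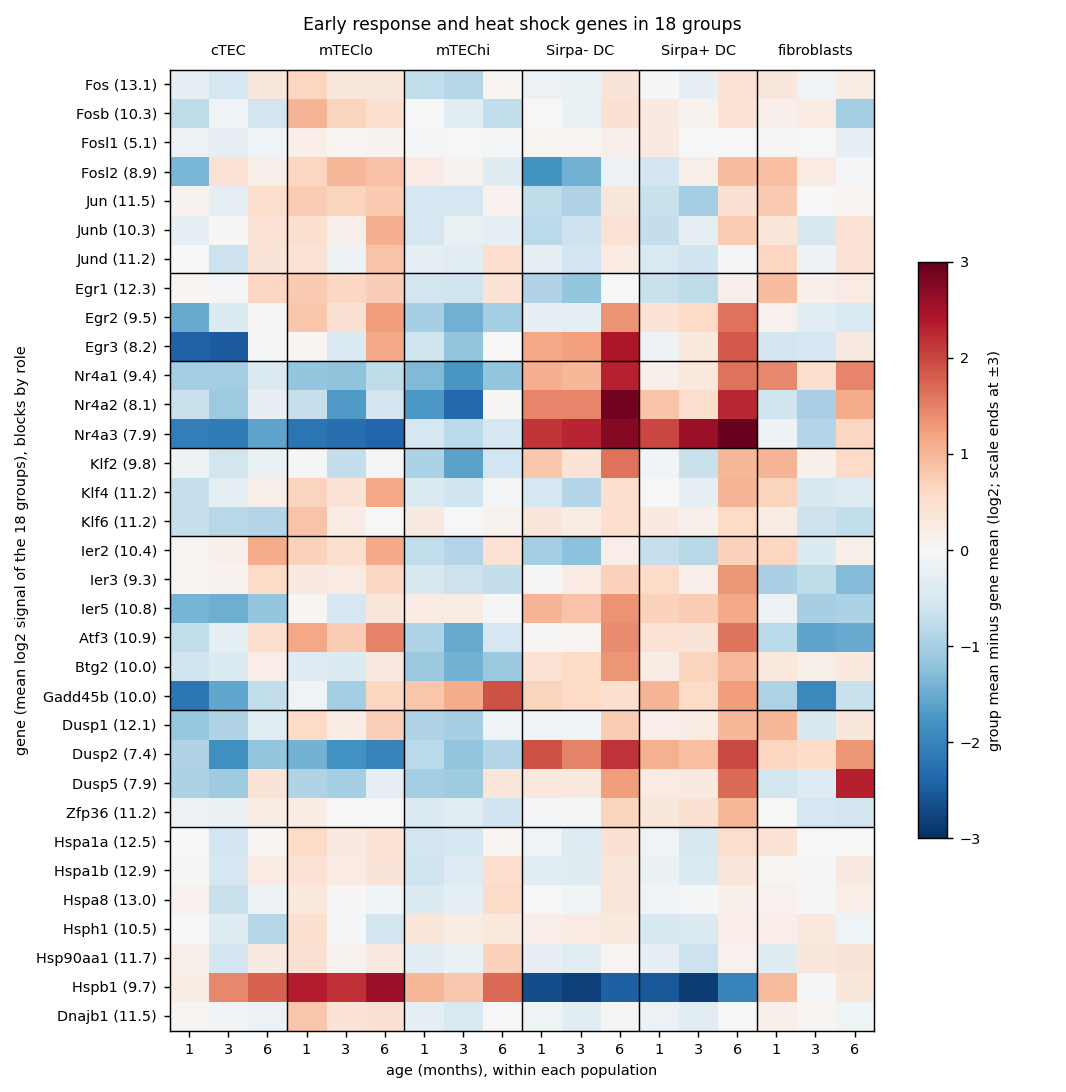
Group means of the 33 genes as colours, each minus the mean of the gene over the 18 groups (log2), with populations and ages in columns and genes in rows, blocked by role. The NR4A genes, Egr3 and Dusp2 are reddest in the dendritic cells, Hspb1 is bluest there, and the columns of 6 months are redder than those of 3 months for most genes.

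Dendritic cells held more RNA of the NR4A receptors and of Dusp2 than epithelium did. With adjusted p under 0.05 and a difference of at least 2-fold, 10 of the 32 tested members (31.2%) were called between the mean of the 3 epithelial and the mean of the 2 dendritic populations, against 24.5% of all 14495 genes tested. All 9 members lower in epithelium were early genes (8.6% of all genes were lower). The only one higher was the small heat shock gene Hspb1 (15.9% of all genes were higher). The median difference of the 32 members was -0.34, against 0.01 over all genes.

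The NR4A genes encode nuclear receptors that act without a known ligand, and Nr4a1 is a widely used reporter of antigen receptor signals in lymphocytes. Nr4a3 ran from 5.35 to 7.71 in the 18 epithelial arrays and from 9.76 to 11.08 in the 12 dendritic arrays. The groups did not overlap, and the fitted difference was -4.07 ± 0.12 (SE, adjusted p = 3.78e-20 by limma). Nr4a2 differed by -2.57 ± 0.12 (adjusted p = 6.93e-16) and Nr4a1 by -2.18 ± 0.11 (adjusted p = 4.75e-15), again with no overlap of arrays. The Nr4a3 difference of -4.07 rests on its brightest probe set, and its other probe sets had the same direction with far smaller gaps. One (r = 0.47 with the one used) had means of 7.05 to 7.21 in the epithelial populations and 7.48 and 7.51 in the dendritic ones. The dimmest had 4.07 to 4.20 and then 4.98 and 4.71. With all probe sets of Nr4a3 averaged in place of the brightest one, the called differences of Nr4a3 in cTEC (-0.94) and between mTEChi and mTEClo (0.62) fell below 2-fold. Within the epithelium, mTEClo lay between 5.35 and 5.86, about the pooled median of 5.66, cTEC overlapped it with 5.67 to 6.46, and mTEChi lay between 6.98 and 7.71. The difference of 1.67 ± 0.19 between mTEChi and mTEClo was called (adjusted p = 3.22e-08), and these arrays did not overlap. It is measured against a signal near the lower end of the arrays.

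In Nr4a1, fibroblasts lay above epithelium and within the range of the dendritic cells. Its fibroblast arrays ran from 9.46 to 11.16 with a median of 10.70, near the Sirpa- DC median of 10.81 and above all 18 epithelial arrays, which ended at 9.04. The difference of fibroblasts from the other 5 populations was 1.35 ± 0.14 (adjusted p = 4.69e-09). Fibroblasts had the highest thymocyte means (8.49 to 10.94), above all arrays of the other populations (at most 8.32). Once the thymocyte mean entered the fit, the Nr4a1 difference was 1.38 with an adjusted p of 0.167 by limma. With 1 mean per group, that fit takes its slope only from differences between the 2 arrays of a group. It extends this slope over ranges that do not overlap, so it cannot tell thymocyte RNA from population. The part of thymocyte RNA in this result was not tested further.

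Dusp2, a phosphatase of MAP kinases found mostly in blood cells, ran from 5.22 to 6.83 in epithelium and from 7.90 to 9.59 in dendritic cells. The arrays did not overlap, and the difference was -2.92 ± 0.12 (adjusted p = 1.36e-17). Dusp2 in fibroblasts (7.45 to 8.96) was only just called higher than in the others, by 1.00 ± 0.14. It missed 2-fold without any one of 17 arrays, and with the thymocyte mean as a covariate it turned to -0.28. The limit of that covariate given for Nr4a1 holds here too. Dusp5, a nuclear ERK phosphatase, differed between epithelium and dendritic cells by -1.28 ± 0.12, with overlapping arrays. The other members lower in epithelium were Egr3 (-1.80 ± 0.24), Ier5 (-1.38 ± 0.14), the antiproliferative gene Btg2 (-1.26 ± 0.13) and Klf2 (-1.06 ± 0.15). Dusp5 and these 4 genes kept the call without any single array, and Ier5 was at -0.90, under 2-fold, when its probe sets were averaged. The second probe set of Egr3 followed the one used here only loosely (r = 0.34 over the 36 arrays). Its population means ran from 6.78 to 7.25, against 6.54 to 9.80 for the one used.

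Hspb1, which encodes the small chaperone Hsp27, had the reverse pattern and the largest difference of the 7 heat shock members. It ran from 6.83 to 7.74 in Sirpa- DC, from 6.86 to 8.26 in Sirpa+ DC, and from 9.39 to 12.34 in epithelium. The difference between epithelium and dendritic cells was 4.12 ± 0.19 (adjusted p = 5.07e-16). In mTEClo it ran from 11.73 to 12.34, and it was the only member of which every array of a population lay above every array of all the others, which ended at 11.71. None of the other 6 chaperones reached a 2-fold difference. Hsp90aa1 was higher in epithelium by 0.30 ± 0.07 (adjusted p = 0.000318) and Dnajb1 was at 0.23 ± 0.11 (adjusted p = 0.0623). Hspa1b differed between epithelium and dendritic cells by 0.13 ± 0.10 (adjusted p = 0.216), Hspa8 by -0.11 ± 0.08 (adjusted p = 0.214) and Hsph1, an Hsp110 cochaperone, by -0.04 ± 0.09 (adjusted p = 0.662). Of 32 tested other heat shock and chaperone genes, 6 were higher in epithelium and 0 lower by limma (18.8% called, against 24.5% of all genes). Hspb8 (4.49 ± 0.14) and Cryab (3.84 ± 0.17), small heat shock genes like Hspb1, had the largest differences of these.

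**Figure D2:**
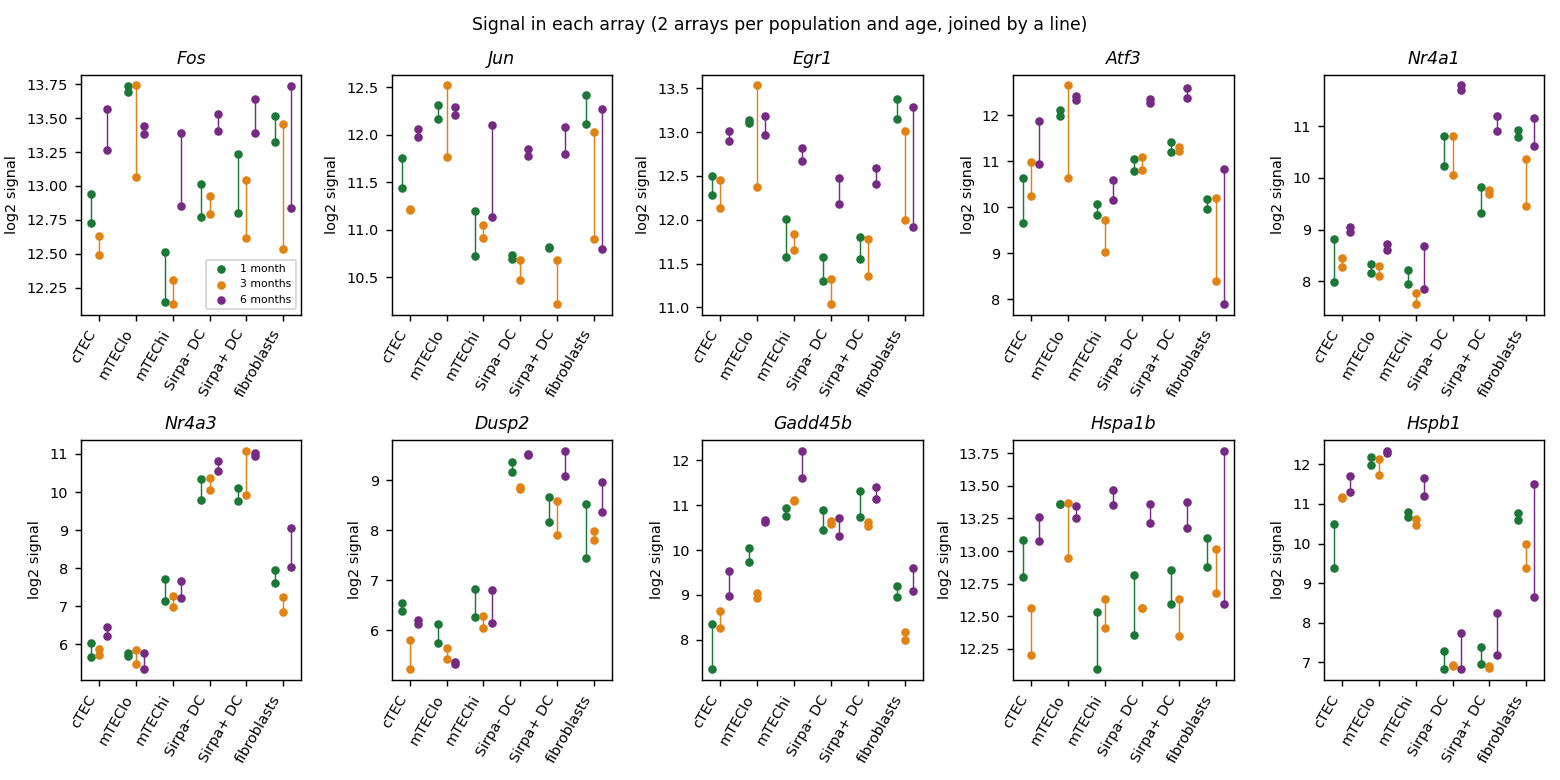
Log2 signal of 10 members in each of the 36 arrays, by population, coloured by age, with a line between the 2 arrays of a group. Nr4a3 and Dusp2 separate the dendritic cells from the epithelium, Hspb1 does so in the other direction, and many lines are long in fibroblasts at 3 and 6 months.

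Within the medulla, mTEClo held more RNA of several early genes than mTEChi, which is the mature, antigen-presenting stage. Of the 32 members, 9 were lower and 2 higher in mTEChi (34.4% called, against 19.6% of all genes, 7.81% lower and 11.8% higher), and the median difference was -0.80, against -0.04 over all genes. Atf3, a stress-induced factor, ran from 10.64 to 12.64 in mTEClo and from 9.03 to 10.59 in mTEChi. These arrays did not overlap, and the difference was -2.12 ± 0.37 (adjusted p = 2.55e-05). Egr2 differed by -2.0 ± 0.34 (adjusted p = 1.85e-05). The heat shock gene Hspb1, also among the 9, differed by -1.21 ± 0.30 (adjusted p = 0.00146).

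Smaller differences in the same direction were called for Dusp1 (-1.19 ± 0.20), Ier2 (-1.16 ± 0.18), Klf4 (-1.10 ± 0.25), Fosb (-1.08 ± 0.28), Btg2 (-1.04 ± 0.20) and Jun (-1.02 ± 0.21). These lay close to the 2-fold threshold. Without replicate 1 of mTEClo at 3 months, Dusp1 was at -0.94, Fosb at -0.89, Btg2 at -0.93 and Jun at -0.90. Without replicate 2 of mTEChi at 6 months, Klf4 was at -0.99, Btg2 at -0.89 and Jun at -0.86. Jun and Btg2 also missed 2-fold without replicate 2 of mTEClo (-1.0 and -0.92) or of mTEChi (-0.95 and -0.99) at 1 month, and Btg2 without replicate 2 of mTEChi at 3 months (-0.99). Fos, at -0.95 ± 0.16 (adjusted p = 1.84e-05), and Egr1, at -0.96 ± 0.20 (adjusted p = 0.000233), passed the p threshold and not the fold. Fos itself ran from 13.06 to 13.74 in mTEClo with a median of 13.57, and from 12.13 to 13.39 in mTEChi with a median of 12.41. The arrays overlapped because those of mTEChi at 6 months reached 12.85 and 13.39. The 3′ to 5′ difference was 1.84 to 3.07 in mTEClo and 1.73 to 2.11 in mTEChi. With it as a covariate, 6 members were called in place of 11.

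Gadd45b, a stress sensor that feeds p38 signalling, ran the other way from most early genes. It was higher in mTEChi (10.76 to 12.21) than in mTEClo (8.94 to 10.67), with no overlap, by 1.45 ± 0.16 (adjusted p = 2.68e-08). cTEC, at 7.35 to 9.54, had the lowest mean of the 6 populations, at 8.52 ± 0.74 (SD, n = 6). Its difference from the mean of both medullary populations was -2.05 ± 0.14 (adjusted p = 5.22e-12). cTEC was also lower than the medullary cells in Egr3 (-1.49 ± 0.32), Ier5 (-1.39 ± 0.18) and Klf6 (-1.05 ± 0.18), which gives 4 of 32 members lower, against 8.24% of all genes. In this comparison limma called 0 members higher, against 5.4% of all genes, while 3 were higher at an unadjusted p under 0.05 (13.6% of all genes were called in either direction). These 3, Nr4a1 (0.40), Nr4a2 (0.50) and Btg2 (0.43), missed only the fold (adjusted p = 0.0329, 0.0133 and 0.0446). Others, such as Dusp1 (-0.71, adjusted p = 0.00143), were lower and missed it too. Without replicate 1 of cTEC at 1 month, Egr3 was at -0.96 and Klf6 at -0.98, and without replicate 1 of mTEClo at 3 months Klf6 was at -0.94. The thymocyte list was higher in cTEC than in medullary cells, and with its mean as a covariate only Gadd45b was called. Egr3 was then at -1.49 (adjusted p = 0.125), Ier5 at -1.03 (adjusted p = 0.0561) and Klf6 at -0.62 (adjusted p = 0.244). The slope of this covariate came only from differences between the 2 arrays of a group, and the part of that RNA was not tested further.

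Against the mean of the other 5 populations, the calls were split by cell type. mTEChi had 7 members lower and 2 higher (all genes: 5.31% lower, 13.9% higher, 19.2% in either direction). cTEC had 5 lower and 1 higher (6.37%, 9.73% and 16.1%). Sirpa- DC had 7 higher and 2 lower (all genes: 6.2% higher, 13% lower, 19.2% in either direction). Sirpa+ DC had 6 higher and 1 lower (6.7%, 10.2% and 16.9%), and mTEClo had 4 higher and 4 lower (9.42%, 5.37% and 14.8%). Fibroblasts had 2 higher, Nr4a1 and Dusp2, and 3 lower, Atf3 (-1.56 ± 0.29), Gadd45b (-1.41 ± 0.12) and Ier3 (-1.23 ± 0.24), against 8.38% of all genes higher, 9.98% lower and 18.4% in either direction. Fibroblasts had the highest thymocyte means. With that mean as a covariate, Atf3 was at -0.59 (adjusted p = 0.836 by limma) and Ier3 at -0.75 (adjusted p = 0.736). As for Nr4a1, that fit cannot tell thymocyte RNA from population. Ier3 was at -0.72, under 2-fold, without replicate 2 of fibroblasts at 6 months. In mTEClo the members higher were Hspb1 (2.85 ± 0.23), Atf3 (1.36 ± 0.29), Egr2 (1.02 ± 0.26) and Fosl2 (1.01 ± 0.14), and the last 2 fell under 2-fold without 9 and 10 single arrays. Shares of members called were thus near those of all genes in fibroblasts and cTEC (15.6% and 18.8%).

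The order of the populations differed between genes of one family. mTEClo had the highest mean of the 6 populations for Fos, Fosb, Fosl2, Jun, Junb and Jund. For Fos the means were 13.51 ± 0.27 in mTEClo, 13.23 ± 0.46 in fibroblasts, 13.12 ± 0.38 in Sirpa+ DC, 13.07 ± 0.32 in Sirpa- DC, 12.94 ± 0.41 in cTEC and 12.56 ± 0.49 in mTEChi (SD, n = 6). Each neighbouring pair in this order differed by less than the larger SD of the pair. For Egr1 mTEClo was also highest, at 13.05 ± 0.38, and Sirpa- DC lowest, at 11.65 ± 0.56. For Egr3, in contrast, Sirpa- DC was highest, at 9.80 ± 0.75, and cTEC lowest, at 6.54 ± 1.65. Hspa1b, which had the smallest range of population means after Fosl1 and Hspa8, ran from 12.75 ± 0.54 in mTEChi to 13.27 ± 0.17 in mTEClo.

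Few members differed by 2-fold between Sirpa+ and Sirpa- DC. Fosl2, an AP-1 subunit with slower kinetics than Fos, was the only member called between them. It was higher in Sirpa+ DC by 1.31 ± 0.18 (adjusted p = 2.62e-06), while 3.87% of all genes were higher, 1.5% lower and 5.37% either. limma called 0 members lower, with 6 at an unadjusted p under 0.05. Of these, Nr4a1 (-0.78), Nr4a2 (-0.71), Klf2 (-0.86), Hsph1 (-0.49) and Dusp2 (-0.54) passed the adjusted p and missed only the fold. Their adjusted p values were 0.00192, 0.00758, 0.00808, 0.00964 and 0.0326. Fosl2 was 6.91 and 7.20 in Sirpa- DC at 1 month, 7.38 and 7.46 at 3 months and 8.54 and 8.81 at 6 months. In Sirpa+ DC it was 8.09 and 8.46, 8.76 and 9.30, and 9.68 and 9.87 at the same ages. The second probe set of Fosl2 did not track the one used here, and with their mean the difference was 0.85. The macrophage list was also higher in Sirpa+ DC (median of its mean 11.30, against 9.10 in Sirpa- DC), and its part in the Fosl2 difference was not tested. Egr1 was at a low mean in both dendritic populations (11.65 and 11.92), and Egr3 and the NR4A genes were high in both.

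Among the ages, the set differed mainly between 3 and 6 months. Few animals may stand behind each age, so age cannot be told apart from the animals or their digestion and sort. The test over the mean took arrays of different populations as independent, which was not shown. Over the mean of the 6 populations, 23 of 32 members were higher at 6 than at 3 months at an adjusted p under 0.05, against 15.5% of all genes higher. limma called 0 members lower, also at an unadjusted p under 0.05, against 16% of all genes lower and 31.5% called either way. The median change of the members was 0.59, against -0.03 over all genes. Bright genes as a whole were more often higher at 6 months. Of 3090 genes with a mean log2 signal of at least 9, 27.7% were higher and 11% lower, and of 487 genes with at least 11, 40.2% were higher and 3.29% lower.

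The largest rise was that of Nr4a2, by 1.61 ± 0.14 (adjusted p = 4.82e-09), which is 3.05-fold. In mTEChi it went from 5.92 and 5.50 at 3 months to 8.08 and 8.16 at 6 months, and in Sirpa- DC from 9.79 and 9.26 to 10.90 and 11.01. In fibroblasts it went from 7.42 and 6.76 to 8.99 and 9.39. In each of the 6 populations both arrays of 6 months lay above both arrays of 3 months. Dusp5 rose by 1.46 ± 0.13 (adjusted p = 1.56e-08), and likewise in all 6 populations. Its arrays in cTEC were 6.75 and 6.94 at 3 months and 8.09 and 8.60 at 6 months, and in Sirpa+ DC 8.10 and 8.28 and then 9.74 and 9.50. Egr3 rose by 1.45 ± 0.26 (adjusted p = 0.000213) and Ier2, a small nuclear early response protein, by 1.08 ± 0.13 (adjusted p = 1.03e-06). These 4 genes were higher at 6 than at 3 months in all 6 populations by their means. The value of Egr3 rests on the brighter of its probe sets, which the other followed only loosely.

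Every family took part in that step. Of the AP-1 genes tested, Jun (0.72 ± 0.15), Junb (0.71 ± 0.12), Jund (0.81 ± 0.10) and Fos (0.56 ± 0.11) rose, while Fosb was at -0.23 ± 0.20 (adjusted p = 0.395) and Fosl2 at 0.14 ± 0.12 (adjusted p = 0.393). All 3 EGR and all 3 NR4A genes rose. Egr2 (0.70 ± 0.24, adjusted p = 0.0276) was the only one of the 23 whose call was lost when single arrays were left out. It was lost without replicate 1 of cTEC, mTEChi, Sirpa- DC or Sirpa+ DC at 6 months (adjusted p = 0.0611, 0.0675, 0.0514 and 0.0522), replicate 2 of mTEClo at 3 months (0.0633) or replicate 1 of Sirpa+ DC at 3 months (0.0546). Klf2 (0.88 ± 0.16) and Klf4 (0.76 ± 0.17) rose and Klf6 was at 0.08 ± 0.14 (adjusted p = 0.713). Dusp1 (0.72 ± 0.14) and Dusp2 (0.55 ± 0.13) rose with Dusp5, and Zfp36 was at 0.24 ± 0.14 (adjusted p = 0.208). Gadd45b (0.85 ± 0.11), Atf3 (0.86 ± 0.26) and Btg2 (0.46 ± 0.14) rose as well. With probe sets averaged, Nr4a3 was at 0.06 (adjusted p = 0.583) and Btg2 at 0.34 (adjusted p = 0.0594), and without the 6 fibroblast arrays Nr4a3 was at 0.34 (adjusted p = 0.0641).

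Of the 7 chaperone genes, 4 rose between 3 and 6 months, namely Hspa1b (0.61 ± 0.10, adjusted p = 0.000113), Hspa1a (0.52 ± 0.15, adjusted p = 0.00907), the cytosolic Hsp90 gene Hsp90aa1 (0.52 ± 0.07, adjusted p = 1.42e-05) and Hspa8 (0.35 ± 0.09, adjusted p = 0.00294). Hspb1 was at 0.53 ± 0.21 (adjusted p = 0.0586), and Dnajb1 and Hsph1 did not pass either. Some of these calls depended on the scaling of the arrays. After quantile normalization, Fos was at 0.20 (adjusted p = 0.0565), Hspa1a at 0.22 (adjusted p = 0.162) and Hspa8 at -0.01 (adjusted p = 0.832), and Hsph1 was called lower at -0.28 (adjusted p = 0.0118). With it 20 members were higher and 1 lower, and all genes were split into 1494 higher and 3640 lower, in place of 2244 and 2316.

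**Figure D3:**
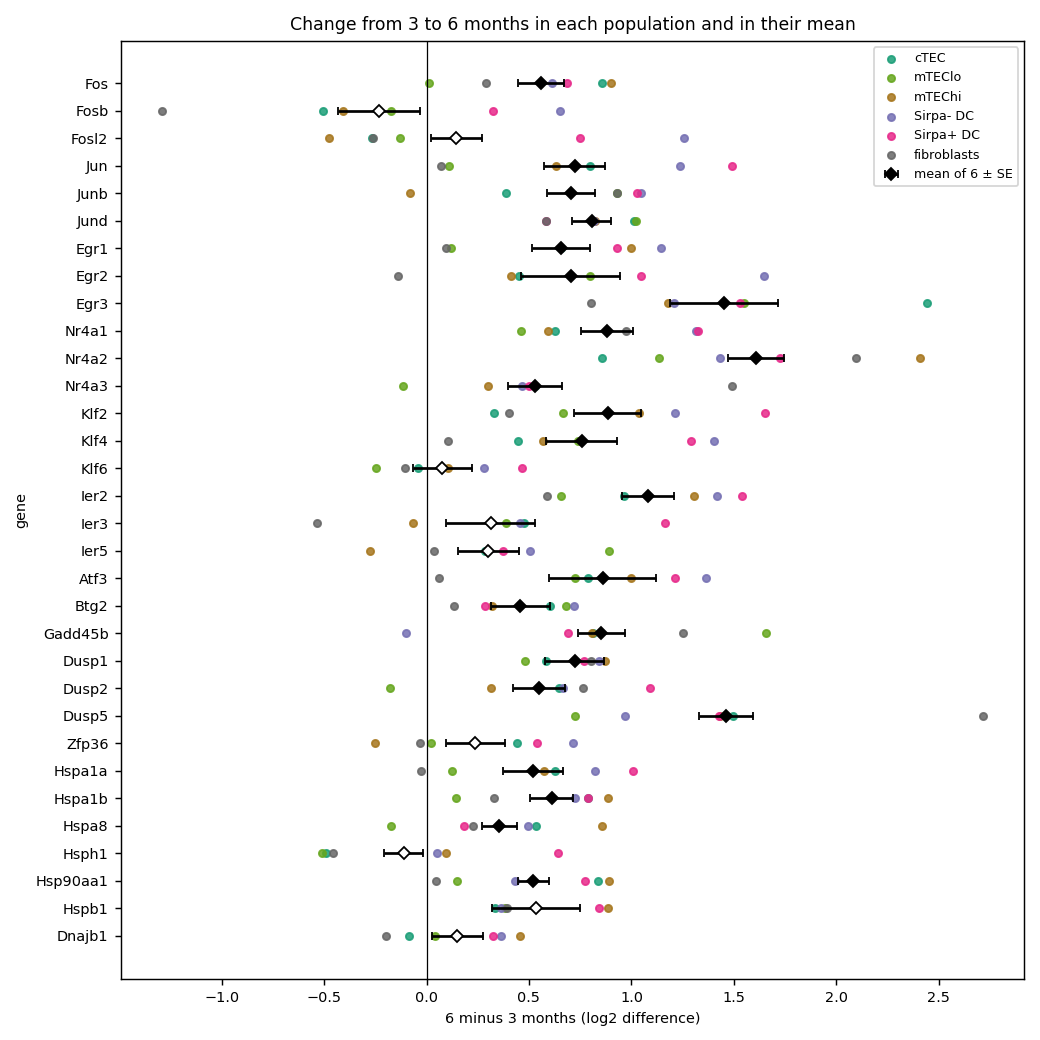
Log2 difference between 6 and 3 months for the 32 tested members, with coloured points for the 6 populations and a diamond for their mean ± SE (filled where called). The diamonds of Nr4a2, Dusp5 and Egr3 lie farthest to the right, and those of Fosb and Hsph1 lie left of 0.

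Other genes of the same pathways were counted in that step too. Of 48 tested other early response genes, 15 were higher and 3 lower (37.5% called, against 31.5% of all genes), with Trib1 (0.98 ± 0.11), Id3 (0.94 ± 0.15), Id2 (0.94 ± 0.14) and the eIF2 phosphatase subunit Ppp1r15a (0.90 ± 0.10) changing most. Of 32 other heat shock and chaperone genes, 3 were higher and 3 lower, which is 18.8% called. Of 16 genes of the unfolded protein response of the endoplasmic reticulum, 8 were higher and 3 lower (68.8% called), among them Ddit3 (0.49 ± 0.09) and Hspa5 (0.45 ± 0.08).

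Between 1 and 3 months the set changed little. Of the members, 3 were lower at 3 months, Klf2 (-0.59 ± 0.16), Nr4a2 (-0.46 ± 0.14) and Jund (-0.42 ± 0.10), and Fosl2 was higher (0.41 ± 0.12), against 4.5% of all genes lower, 1.84% higher and 6.34% either. The direction was nevertheless down for 29 of the 32. Of these 4 calls, only that of Jund held without each single array. With the 3′ to 5′ difference as a covariate limma called 0 of the 32 in this step. Between 1 and 6 months 19 members were higher and 1 lower, against 14.9% and 21.7% of all genes (36.6% either), and 14 of the 20 calls held without each single array. Dusp5 (1.45 ± 0.13), Egr3 (1.35 ± 0.26) and Nr4a2 (1.14 ± 0.14) rose most. The gene that fell was Hsph1, at -0.24 ± 0.10 (adjusted p = 0.0486), a call that was lost without any one of 24 arrays and that turned to 0.25 when its probe sets were averaged. The 3′ to 5′ difference fell with age in several populations, and with it as a covariate 23 members were higher at 6 than at 3 months and 19 at 6 than at 1 month.

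Within single populations, with 2 arrays against 2, fewer calls were made. Over the 192 cases of a member in a population, 28 were higher and 0 lower from 3 to 6 months by limma (2.91% of all such cases of any gene were higher), and at an unadjusted p under 0.05 there were 3 lower. From 1 to 6 months 25 were higher and 4 lower (4.86% and 5.4%), and from 1 to 3 months 2 were higher and 8 lower (2.06% and 2.6%). After quantile normalization the members higher from 3 to 6 months numbered 3 in mTEChi, 4 each in cTEC, Sirpa+ DC and fibroblasts, 2 in mTEClo and 0 in Sirpa- DC, with 1 lower in cTEC and 2 in fibroblasts. All genes in mTEChi were then split into 512 higher and 763 lower. Only 5 of the 28, 4 of the 29 and 1 of the 10 calls held without each single array. From 3 to 6 months mTEChi had 8 members higher (5.17% of all genes higher), led by Nr4a2 (2.41 ± 0.33), and Sirpa+ DC had 7 (0.849%), led by Nr4a2 (1.73 ± 0.33) and Klf2 (1.65 ± 0.40). Fibroblasts had 6 (6.91%), led by Dusp5 (2.72 ± 0.32), and cTEC had 4 (2.74%), led by Egr3 (2.44 ± 0.64). mTEClo had Gadd45b (1.66 ± 0.28) and Jund (1.02 ± 0.24) (1.58%), and Sirpa- DC had Ier2 (1.42 ± 0.31) (0.2%). From 1 to 3 months cTEC had Fosl2 higher (1.81 ± 0.30, 1.52%), from 7.21 and 7.75 to 9.08 and 9.51, and Hspa8 (-0.80 ± 0.21) and Hsp90aa1 (-0.73 ± 0.18) lower (3.88%). After quantile normalization 1 member was higher and 0 lower in that step.

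In the dendritic cells nearly all members had a higher mean at 6 months. In Sirpa+ DC all 32 members had a higher mean at 6 than at 1 month, and in Sirpa- DC 31 of 32, while 43.6% and 47.3% of all genes did. The median change of the early genes was 1.02 in Sirpa+ DC and 0.89 in Sirpa- DC. Jun was 10.81 and 10.82 in Sirpa+ DC at 1 month, 10.22 and 10.69 at 3 months, and 12.09 and 11.80 at 6 months. Atf3 was 11.20 and 11.41, then 11.23 and 11.31, and then 12.60 and 12.37 in the same cells. In both genes the 2 arrays of 6 months lay above all 4 of the younger ages. With 2 arrays against 2, Fosl2 (1.5 ± 0.30), Nr4a1 (1.49 ± 0.31), Junb (1.47 ± 0.29), Dusp5 (1.46 ± 0.32), Nr4a2 (1.41 ± 0.33) and Ier2 (1.39 ± 0.31) passed the test in Sirpa+ DC from 1 to 6 months, against 1.35% of all genes higher. In Sirpa- DC it was Fosl2 (1.62 ± 0.30), Nr4a2 (1.43 ± 0.33) and Junb (1.24 ± 0.29), against 0.538% of all genes higher. None of these 9 calls held when each single array of its own groups was left out.

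In mTEChi 3 of the 7 chaperone genes rose beside 5 early genes. Between 1 and 6 months Hspa1b rose by 1.10 ± 0.26, Hsp90aa1 by 1.02 ± 0.18 and Hspa8 by 0.99 ± 0.21, beside Nr4a2 (1.77 ± 0.33), Dusp5 (1.38 ± 0.32), Ier2 (1.16 ± 0.31), Gadd45b (1.07 ± 0.28) and Jund (0.76 ± 0.24). These are 8 of 32 members, against 6.17% of all genes higher. After quantile normalization 3 members were higher, and the median change of the members was 0.05. Hsp90aa1 was 11.56 and 11.13 at 1 month, 11.52 and 11.42 at 3 months, and 12.36 and 12.37 at 6 months, with both arrays of 6 months above the others. Of these 8, Hsp90aa1 and Nr4a2 kept the call without any single array. Without replicate 2 of mTEChi at 1 month, Hspa1b and Hspa8 lost it. In cTEC, Fosl2 (1.55 ± 0.30), Egr3 (2.37 ± 0.64), Gadd45b (1.41 ± 0.28), Dusp5 (1.37 ± 0.32) and Ier2 (1.04 ± 0.31) were higher at 6 than at 1 month and Hsph1 lower (-0.83 ± 0.23), against 2.71% and 3.74% of all genes, and all 6 lost the call without replicate 1 of cTEC at 1 month. In mTEClo only Hsph1 was called between 1 and 6 months, with 11.12 and 10.91 and then 9.91 and 10.07, a change of -1.03 ± 0.23 (3.87% of all genes were lower). It lost the call without replicate 1 at 1 month (adjusted p = 0.0994) or at 6 months (adjusted p = 0.0997).

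In fibroblasts the 2 arrays of 6 months stood far apart, which bears on each change to that age. Between 1 and 3 months 6 early genes were lower, Dusp1 (-1.48 ± 0.35), Ier2 (-1.06 ± 0.31), Gadd45b (-0.99 ± 0.28), Nr4a1 (-0.94 ± 0.31), Junb (-0.86 ± 0.29) and Jund (-0.82 ± 0.24), against 10.4% of all genes lower, and Hsp90aa1 was higher (0.72 ± 0.18, 10.1% of all genes higher). Between 1 and 6 months 11 of 32 members had a positive change, with a median of -0.45 for the early genes. The mean deviation of the early genes was 0.49 in replicate 1 of 6 months and -0.34 in replicate 2, against 0.14 and 0.29 in the arrays of 1 month, so that 1 array lay above and 1 below them. Dusp5 still rose by 2.87 ± 0.32 (adjusted p = 9.73e-07), from 7.11 and 7.65 at 1 month to 9.48 and 11.02 at 6 months, and Nr4a2 by 1.71 ± 0.33 (adjusted p = 0.000343). Both of these calls held without each single array. Hsp90aa1 (0.76 ± 0.18) was also higher, and Fosl2 (-0.93 ± 0.30) and Klf6 (-0.96 ± 0.35) were lower, against 15.8% and 20.4% of all genes. These 3 lost the call without replicate 1 at 1 month. Of the changes from 1 to 3 months, all 6 lower genes lost the call without replicate 2 of fibroblasts at 3 months. The thymocyte mean of the fibroblast groups was 9.33 at 1 month, 10.16 at 3 and 10.76 at 6 months. The first step comes from 1 array, since the arrays of 1 month were 8.49 and 10.17 and those of 3 months both 10.16. Those of 6 months were 10.57 and 10.94. With the thymocyte mean as a covariate, 5 cases of a member in any of the 6 populations were called from 1 to 3 months, in place of 10. Its effect on the fibroblast changes alone is not given here. Without the 6 fibroblast arrays, 24 members were higher at 6 than at 3 months over the other 5 populations.

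Whether the change with age differed between populations was tested by a moderated F-test. It called 6 of 32 members (18.8%, against 15.7% of all genes). They were Fosl2 (adjusted p = 0.000356), Hsp90aa1 (0.00494), Gadd45b (0.0123), Hsph1 (0.0220), Hspa8 (0.0287) and Dusp5 (0.0447). Other probe sets of Fosl2 (r = 0.004 over the 36 arrays), Hsph1 (0.44) and Hspa8 (0.69, 0.24 and 0.21) followed the one used loosely or not at all. Those of Gadd45b had r of 0.97 and 0.83, and those of Hsp90aa1 0.84, 0.75, 0.62 and -0.11. This limit also bears on the changes of Fosl2, Hsph1 and Hspa8 within populations above. Without replicate 1 of fibroblasts at 6 months the count was 18, and without replicate 1 of mTEClo at 6 months it was 3. The change from 1 to 6 months was smaller in epithelium than in dendritic cells for Fosl2 (by -1.17 ± 0.28, adjusted p = 0.0249) and Hsph1 (by -1.04 ± 0.21, adjusted p = 0.00913), and larger for Gadd45b (by 1.04 ± 0.25, adjusted p = 0.0296), against 1.01% of all genes smaller, 0.897% larger and 1.91% either. For Hsph1 this held without each single array, with the probe set used here. For Fosl2 and Gadd45b it was lost without 6 and 12 of them, with adjusted p of at most 0.111.

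The 2 arrays of a group often differed in the whole set at once. The median difference between the 2 arrays, over genes and groups, was 0.28 for early genes and 0.24 for heat shock genes, against 0.21 for all genes and 0.18 for the 3090 genes with a mean of at least 9. Egr3 had the largest median difference (0.71), larger than that of 99.9% of all genes, and Btg2 (0.50) and Egr2 (0.49) followed. In cTEC at 1 month all 25 early genes tested were lower in replicate 1, Egr3 with 4.17 against 7.37. The heat shock genes went both ways there, with 5 of 7 higher in replicate 1 and Hspb1 lower in it (9.39 against 10.50). Their median gap was 0.18, and their signed mean difference was -0.02. In fibroblasts at 6 months Atf3 was 10.83 and 7.90, Hspb1 11.50 and 8.66 and Fos 13.74 and 12.83, with 20 of 25 early and all 7 heat shock genes higher in replicate 1. In mTEClo at 3 months, 22 of 25 early and 7 of 7 heat shock genes were higher in replicate 1, in which the 3′ to 5′ difference was also higher (3.07, against 1.90). The part of RNA integrity in that difference was not tested.

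As a description over the 18 groups, these differences between the 2 arrays moved together across genes. The median Pearson correlation was 0.49 over the 300 pairs of early genes, 0.46 over the 21 pairs of heat shock genes and 0.30 over the 175 pairs of an early and a heat shock gene. Fos went with Egr1 (r = 0.82), Jun (r = 0.79) and Dusp1 (r = 0.75). The genes of a pair share the same arrays, so their common array signal enters each value.

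**Figure D4:**
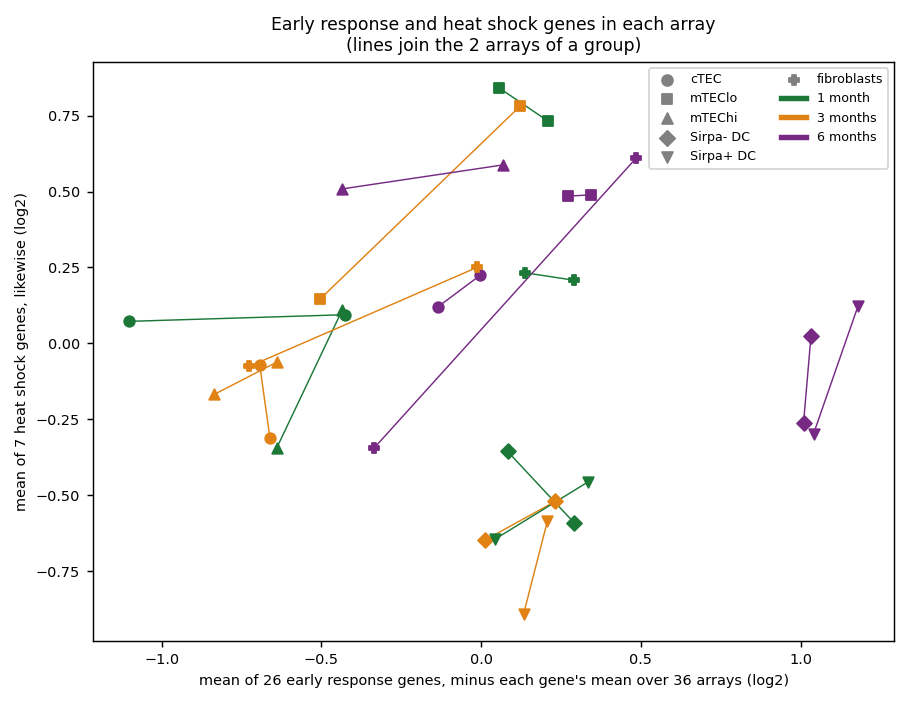
Mean of the 26 early genes (horizontal) and of the 7 heat shock genes (vertical) in each of the 36 arrays, each gene taken minus its mean over all arrays (log2), with colour for age, symbol for population and a line between the 2 arrays of a group. The 4 dendritic arrays of 6 months lie at the far right, between 1.01 and 1.18, and the lines of fibroblasts at 3 and 6 months and of mTEClo at 3 months are the longest.

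The genes most like Fos over the 18 group means were Hspa1a (r = 0.92), Hspa1b (0.87), Dusp1 (0.81), Tpt1 (0.80) and Myl12a (0.79), of which the first 3 belong to the set. Over the deviations of the 36 arrays from their group means, they were Zfp36 (r = 0.92), Tle1 (0.87), H2-K1 (0.87), H2-D1 (0.87) and Ier2 (0.87). Nr4a3 was the member least like Fos over the group means (r = 0.01) apart from Hsph1 (-0.06) and Gadd45b (-0.07).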

How the data were processed

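RNA of 36 samples was hybridised to 1 array each. The deposited log2 values came from GCRMA, per the submitters' processing notes, whose version no source used here gives. The series' design text also names Gene Expression Commons. The base of the logarithm was inferred from how far the values extend. Of 45101 probe sets, 64 were controls, 34945 had 1 gene symbol, 932 several and 9160 none, and only those with 1 symbol were used.

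Each gene was read from its brightest probe set, and tested where it exceeded the pooled median (5.66) in at least 2 arrays. Array medians ran from 5.61 to 5.75. With 2 arrays a group, their number bounds how precise a value can be. limma 3.58.1 (R 4.3.3) was fitted to all 14495 genes with 18 group means, leaving 18 residual degrees of freedom, with Benjamini-Hochberg adjustment over all genes. Calls needed an adjusted p under 0.05 and, between populations, a 2-fold difference. The analysis was tested on simulated data. Any of the 33 members could be named, up to 4 called genes with the largest change of each other list, and the 5 genes most like Fos by each of both correlations.

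Members and lists were chosen with earlier results of these data known. Same-numbered replicates were not shown to be paired. Alternatives to the scaling, probe set choice, filter, covariates, weights, block and threshold were tried. These 52 comprised 36 that each left out 1 array and 16 others.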

Additional observations from a re-analysis of the deposited data

Results flagged for a closer look

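The change with age differed between the 6 populations, by the adjusted p of the F-test, for Fosl2 (0.000356), Hsp90aa1 (0.00494), Gadd45b (0.0123), Hsph1 (0.022), Hspa8 (0.0287) and Dusp5 (0.0447). The change from 1 to 6 months in epithelium minus that in dendritic cells was -1.17 for Fosl2, -1.04 for Hsph1 and 1.04 for Gadd45b on the log2 scale. All these values rest on the brightest probe set of each gene.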

How the results depend on the processing

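With a 4-fold threshold for populations and 2-fold for ages, members called against the other populations numbered 1 in cTEC, 3 in mTEClo, 0 in mTEChi, 4 in Sirpa- DC, 2 in Sirpa+ DC and 0 in fibroblasts. The pairs gave 5 (epithelium and DC), 1 (mTEChi and mTEClo), 1 (cTEC and mTEC) and 0 (both DC). Ages gave 3 cases within populations from 1 to 3 months and, over the mean, 0 from 1 to 3, 3 from 1 to 6 and 4 from 3 to 6 months. With the thymocyte covariate, counts were 5 in mTEClo, 1 in fibroblasts, 1 for cTEC and mTEC, and, from 1 to 3 months, 5 cases and 2 over the mean, and Dusp2 in fibroblasts was -0.28. With probe sets averaged they were 4 in Sirpa+ DC, 2 for cTEC and mTEC, 0 between DC and 1 over the mean from 1 to 3 months, and Hsph1 from 1 to 6 months was 0.25. With the 3′ to 5′ covariate they were 6 for mTEChi and mTEClo, 3 cases and 0 over the mean from 1 to 3 months, and Hsph1 from 1 to 6 months was 0.00084. Quantile normalization put Hspa8 from 3 to 6 months at -0.013. It also split all genes into 1766 higher and 4058 lower from 1 to 6 months (2160 and 3141 as deposited). Fitting only the groups compared gave 4 cases from 1 to 3 and 52 from 1 to 6 months. Array weights gave 45 cases from 1 to 6 months and 6 epithelium and DC differences in age change. Without the 6 fibroblast arrays there were 5 cases from 1 to 3 months, 5 such differences and 3 members by the F-test.

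Over all genes, the differences between replicates 1 and 2 correlated above 0.1 in 4, 10 and 3 of 15 pairs of populations at 1, 3 and 6 months. Over the members alone the median correlation was 0.31, 0.34 and 0.12, and the highest 0.72, 0.63 and 0.81. Whether same-numbered replicates were paired was not settled by these values. A fixed replicate block within age gave 17 cases from 1 to 3 months, and a random block gave 1 member over the mean in that step. From 1 to 6 months, Jun, Klf4 and Hsph1 lost the call over the mean with the random block (adjusted p = 0.0515, 0.0717 and 0.0817 by limma).

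Leaving out each array in turn gave 6 to 10 members in cTEC, 6 to 12 in mTEClo, 9 to 9 in mTEChi, 9 to 10 in Sirpa- DC, 5 to 8 in Sirpa+ DC and 3 to 6 in fibroblasts. The pairs gave 10 to 11 (epithelium and DC), 8 to 16 (mTEChi and mTEClo), 2 to 4 (cTEC and mTEC) and 1 to 1 (both DC). Within populations there were 4 to 14, 22 to 49 and 19 to 39 cases from 1 to 3, 1 to 6 and 3 to 6 months, and over the mean 1 to 6, 16 to 24 and 22 to 26 members. The age change differed between epithelium and DC for 1 to 6 members and by the F-test for 3 to 18. The cause was not tested for any of these.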
